A study of Rattus norvegicus with 69 samples.

Results

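Liver mRNA of 10 genes that carry the insulin signal and make glucose was followed across all 8 groups of the series. The genes were the insulin receptor Insr, the adaptors Irs1 and Irs2, the phosphoinositide 3-kinase (PI3-kinase) genes Pik3r1 and Pik3c2g, the kinase Akt2, the transcription factor Foxo1 and the gluconeogenic enzymes Pck1, G6pc and Fbp1. They were taken by name, by a rule that uses no measured value but was written with earlier results of these data known, from the 38513 genes of the deposited count table, and all 10 passed the filter on low counts that left 16676 genes for testing in 69 libraries and 16508 in 55.

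All 69 libraries came from frozen liver of Wistar rats, and for the surgical and drug groups the study describes adult males and an overnight fast. Rats made obese by a high-fat diet then underwent Roux-en-Y gastric bypass (RYGB, n = 14), sham surgery (sham, n = 12) or treatment with liraglutide, an analogue of the gut hormone GLP-1, given under the skin (n = 5), the gut hormone PYY3-36 given by implanted minipump (PYY, n = 5), both (liraglutide+PYY, n = 11) or saline (n = 8). All 6 groups shared the obesity-inducing diet and afterwards chose freely between high-fat and low-fat food for about a month. Of the 69 libraries, 8 came from a group labelled BWM and 6 from a group labelled Lean, whose sex, age, diet, treatment and fasting are not described in the sources used here. According to the study's methods some liraglutide+PYY and saline animals were fed for longer, and the labels do not say which. Their number in each of these groups equals that of its batch A libraries, so a longer feeding period and the batch cannot be told apart there.

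The labels also give a batch. Batch A held 41 libraries and batch B 28. RYGB (11 and 3), sham (7 and 5), liraglutide+PYY (6 and 5) and saline (3 and 5) had libraries in both batches, BWM and Lean only in batch A, and PYY and liraglutide only in batch B. Total counts per library ranged from 9110860 to 27559144, the median being 22452318 in batch A and 18270577 in batch B, and the 3 RYGB libraries of batch B held 9110860 to 13941960. As a check of the tissue, the 8 hepatocyte markers were summed in CPM, for such sums counts scaled to the library's total alone. The sums ran from 129422 to 196046 CPM in batch A and from 60477 to 271278 in batch B. In batch B the RYGB libraries were at 77559, 79725 and 238593 CPM and the sham libraries at 60477 to 149424. For single genes CPM is also scaled by edgeR's TMM factor. None of 6 pancreas markers passed the filter on low counts.

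Insulin binds its receptor on the hepatocyte, which phosphorylates the adaptors IRS1 and IRS2. These recruit PI3-kinase, whose lipid product activates AKT2, and AKT2 in turn keeps FOXO1 out of the nucleus. In fasting, when insulin is low, FOXO1 and cAMP signalling raise transcription of Pck1 and G6pc, and FOXO1 also raises that of Irs2 and Insr.

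The promoters of Pik3c2g, the 1 gene of the set that differed between groups, and of G6pc and Insr are shown because they are the 3 of 9 available windows that hold a letter pattern of the insulin and cAMP response. The windows are RefSeq's 300 bases around the annotated start on build GRCr8, with 250 bases before the start and 50 after, written 5′ to 3′ on the gene's strand. G6pc is listed there as G6pc1, and Irs2 had no window. Capitals mark the match.

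Pik3c2g promoter, chr4:174215277-174215576, plus strand: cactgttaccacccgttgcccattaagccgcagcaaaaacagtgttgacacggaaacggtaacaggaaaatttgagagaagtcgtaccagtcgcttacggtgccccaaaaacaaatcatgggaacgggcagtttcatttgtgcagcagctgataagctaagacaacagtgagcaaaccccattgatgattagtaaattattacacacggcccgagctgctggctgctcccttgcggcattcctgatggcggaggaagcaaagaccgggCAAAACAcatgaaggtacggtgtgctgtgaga
G6pc promoter, chr10:86807409-86807708, plus strand: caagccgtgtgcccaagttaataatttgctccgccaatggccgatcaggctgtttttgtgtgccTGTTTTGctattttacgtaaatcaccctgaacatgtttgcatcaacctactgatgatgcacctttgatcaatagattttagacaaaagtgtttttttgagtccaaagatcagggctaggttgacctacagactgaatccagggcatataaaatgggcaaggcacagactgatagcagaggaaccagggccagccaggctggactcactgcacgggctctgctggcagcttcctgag
Insr promoter, chr12:6128754-6129053, minus strand: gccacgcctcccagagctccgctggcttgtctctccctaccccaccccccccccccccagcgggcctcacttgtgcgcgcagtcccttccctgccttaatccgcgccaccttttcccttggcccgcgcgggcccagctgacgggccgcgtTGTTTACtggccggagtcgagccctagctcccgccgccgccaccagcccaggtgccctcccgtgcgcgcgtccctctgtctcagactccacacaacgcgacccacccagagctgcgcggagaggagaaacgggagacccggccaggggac

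The patterns searched on both strands were TGTTTAC, as bound by FOXO factors, TGTTTTG, as in insulin response elements, and TGACGTC, as in cAMP response elements. The Insr window holds TGTTTAC at position -100 from the start, a pattern found in 3.78% of 33469 promoter windows. The G6pc window holds TGTTTTG at -186, and the Pik3c2g window holds it on the other strand, written there as CAAAACA, at 19 after the start, a pattern found in 6.28% of windows. TGACGTC, found in 3.22% of windows, was in none of the 9. Only exact matches were searched, so its absence does not show that a window lacks a cAMP response element. The Pck1 window, for example, holds TTACGTC, with T in place of the first G. A match describes the letters only and is no evidence of binding.

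Within the liver the enzymes were far more abundant than the signalling genes. Per kilobase of exon, Pck1 averaged 898 CPM in batch A and 448 in batch B, Fbp1 376 and 326, and G6pc 184 and 216. Akt2 averaged 11.3 and 12.2 CPM per kilobase and Pik3r1 9.41 and 5.19. The receptor, the adaptors, Pik3c2g and Foxo1 lay at or below 2.58 CPM per kilobase in both batches.

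RYGB treated animals had higher Pik3c2g mRNA than sham animals, and it was the 1 gene of the 10 that passed the test. Pik3c2g (gene ID 116720, Rnor_6.0 chromosome 4, 173732196 to 174102502, plus strand) encodes the gamma form of class II PI3-kinase, an enzyme found mainly in the liver that acts on endosomes and helps to sustain AKT2 activity. Its CPM ran from 14.1 to 26.2 with a median of 21.2 after RYGB and from 8.61 to 17.8 with a median of 13 after sham surgery. Of the 14 RYGB libraries 13 lay above all 12 sham libraries, the exception being RYGB replicate 1 at 14.1 CPM. The log2 fold change was 0.69 (standard error 0.123, 95% interval 0.44 to 0.94, adjusted p = 0.000284 from edgeR's quasi-likelihood test), a fold of 1.62. In this comparison 408 of 16508 genes (2.47%) passed, 206 of them higher (1.25%), and Pik3c2g was number 44 by p. In bulk liver, fewer cells of a type and less RNA per cell cannot be told apart, here and for every result that follows.

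The difference in Pik3c2g had the same direction in both batches. In batch A alone it was 0.62 (standard error 0.142, adjusted p = 0.011), and in batch B alone 0.83 (standard error 0.227, adjusted p = 0.198). In batch B the RYGB libraries were at 24.0, 21.9 and 18.9 CPM and the sham libraries at 13.3, 17.8, 11.8, 9.50 and 8.61 CPM, so that all 3 lay above all 5, as libraries did in 1 or the other direction for 4.94% of genes. Over all groups the batch term for Pik3c2g was -0.02 (95% interval -0.21 to 0.17). Within saline all 5 batch B libraries lay above all 3 batch A libraries (means 17.7 and 14.3 CPM), as libraries did in 1 or the other direction for 26.4% of genes. Within sham the batch B mean was the lower (12.2 and 13.6). Leaving out each RYGB or sham library in turn gave 0.65 to 0.74, and all 26 of these fits called the gene.

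**Figure D1:**
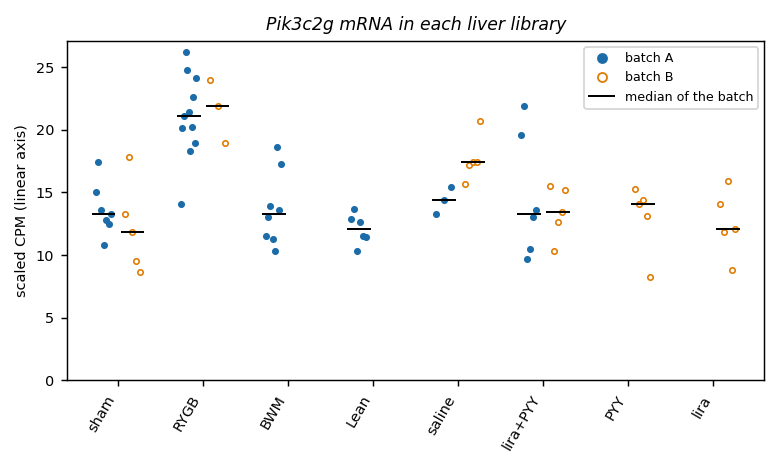
Pik3c2g mRNA in scaled CPM (vertical axis, linear) for each of the 69 liver libraries by group (horizontal axis). Filled points are batch A, open points batch B, and bars are the median of a batch within a group. The RYGB points lie between 14.1 and 26.2 CPM, and all 14 lie above the 6 Lean points.

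Pik3c2g was also higher after RYGB than in the groups BWM and Lean. BWM libraries ran from 10.3 to 18.6 CPM (median 13.3) and Lean libraries from 10.3 to 13.7 (median 12.1). RYGB exceeded BWM by 0.63 on the log2 scale (adjusted p = 0.00353, standard error 0.134, where 1.27% of 16676 genes passed) and Lean by 0.81 (standard error 0.150, adjusted p = 0.000190, where 3.88% passed). All 14 RYGB libraries lay above all 6 Lean libraries, as libraries did in 1 or the other direction for 0.378% of genes. BWM and Lean themselves were close to sham, with log2 differences of 0.06 (95% interval -0.21 to 0.33) and -0.12 (95% interval -0.42 to 0.18). The same 12 sham libraries served for RYGB, BWM and Lean, and the same RYGB libraries for its 3 comparisons.

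Under the drugs Pik3c2g lay at or below saline rather than above it. The sham group, which received no drug, also lay below saline, with a log2 difference of -0.34 (unadjusted p = 0.0204 in edgeR, not passing after adjustment). Saline libraries of batch B were at 15.7, 17.2, 17.4, 17.4 and 20.7 CPM, and those of batch A at 13.3, 14.4 and 15.4. PYY libraries were at 15.3, 14.1, 14.4, 13.1 and 8.22 CPM, liraglutide libraries at 14.1, 11.8, 15.9, 8.83 and 12.1, and liraglutide+PYY libraries ran from 9.72 to 21.9 with a median of 13.4. The log2 fold changes versus saline were -0.32 for PYY (adjusted p = 0.992), -0.39 for liraglutide (adjusted p = 0.966) and -0.22 for liraglutide+PYY (adjusted p = 0.598), and none passed. Within batch B all 5 PYY libraries lay below all 5 saline libraries, as libraries did in 1 or the other direction for 0.288% of genes, and so did the 5 liraglutide+PYY libraries (2.03% of genes). Liraglutide+PYY versus saline was -0.39 in batch B alone and 0.03 in batch A alone, so the pooled value did not hold within batch A, where feeding time and batch cannot be told apart. The 3 drug comparisons share the 8 saline libraries.

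The RYGB effect on Pik3c2g, taken against sham, exceeded that of liraglutide+PYY, taken against saline, by 0.91 on the log2 scale, just short of the threshold. The gap between the controls is part of this value. Sham versus saline was -0.34 (standard error 0.142, unadjusted p = 0.0204 in edgeR) and did not pass after adjustment. The test of the difference between the effects gave a standard error of 0.187 and an adjusted p of 0.0552 in edgeR, with 2 of 16508 genes (0.0121%) passing. DESeq2 with the batch term gave 0.86 with an adjusted p of 0.00180, and limma 0.74 with an adjusted p of 0.0106. The difference was 0.59 in batch A alone (adjusted p = 0.852) and 1.22 in batch B alone (adjusted p = 0.294). Over all 8 groups in 1 test, Pik3c2g was again the 1 gene of the 10 that passed (adjusted p = 1.62e-05), beside 4.31% of 16676 genes. Ordered by the level fitted for batch A, RYGB stood at 21.2 CPM, saline at 16.6, liraglutide+PYY at 14.2, BWM at 13.7, PYY at 13.2, sham at 13.1, liraglutide at 12.7 and Lean at 12.1. No neighbours in that order differed at an adjusted p under 0.05, RYGB and saline included (adjusted p = 0.190).

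The marker list of pericentral hepatocytes, the cells around the central vein, moved in part with Pik3c2g in the RYGB comparisons, but not across all groups. Of its 7 genes 1 was higher in RYGB versus sham, the ammonium transporter Rhbg (log2 fold change 1.06, adjusted p = 0.0444), with a median of 0.33 for the list against -0.01 for all genes. In RYGB versus Lean 4 of the 7 were higher, Rhbg, Cyp2e1, Glul and Slc1a2, with a median of 1.07. In RYGB versus BWM 0 of the 7 passed, with a median of 0.57. Lean versus sham gave a median of -0.89 for the list, whereas Pik3c2g in Lean was close to sham (-0.12). The summed level of the list ran from 3444 to 10103 CPM after RYGB, from 2154 to 7189 after sham surgery, from 3775 to 6997 in BWM and from 2327 to 4645 in Lean. BWM and Lean lie in batch A only. In batch A the sum ran from 4524 to 10103 after RYGB and from 3767 to 7189 after sham surgery. It ran from 5674 to 9406 there under liraglutide+PYY and from 5776 to 9583 under saline. Pik3c2g averaged 14.7 and 14.3 CPM in these last batch A libraries, against 21.1 after RYGB. In batch B the pericentral sum ran from 3444 to 4356 CPM after RYGB and from 2154 to 5890.2 after sham surgery. The 7 periportal markers, Pck1 among them, had 0 calls in RYGB versus sham and 1 in RYGB versus Lean, the lower Sds. All 9 markers of Kupffer cells, the macrophages of the liver, had positive values in RYGB versus sham (median 0.26), versus BWM (median 0.19) and versus Lean (median 0.19). None of the 9 passed, the nearest being Vsig4 in RYGB versus sham (0.61, adjusted p = 0.0505), and their summed level ran from 215 to 728 CPM after RYGB, from 182 to 493 after sham surgery, from 208 to 582 in BWM and from 249.7 to 439 in Lean. In the difference between the RYGB and liraglutide+PYY effects their median was 0.78. The 5 blood markers were all negative in RYGB versus sham, with a median of -0.56 and 0 calls. The part of these 4 marker lists in the Pik3c2g result was not tested.

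The receptor and its adaptors had positive log2 fold changes after RYGB over both batches, and none passed the test. In batch B alone the values were -0.45 for Insr and -0.02 for Irs1, so their direction did not hold there, and 0.35 for Irs2. Insr (gene ID 24954, chromosome 12, 1682527 to 1816414, minus strand), the insulin receptor, was at 10.3 to 29.9 CPM (median 14.4) after RYGB and 7.81 to 16.7 (median 11.8) after sham surgery in batch A. In batch B it was at 0.932, 3.07 and 3.32 CPM after RYGB and between 1.82 and 4.51 after sham surgery. The groups overlapped in both batches, with a log2 fold change of 0.24 (95% interval -0.14 to 0.61, adjusted p = 0.736).

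Irs1 (gene ID 25467, chromosome 9, 88033668 to 88086488, minus strand), the adaptor shared with muscle and fat, differed by 0.27 on the log2 scale in RYGB versus sham (95% interval -0.03 to 0.58, adjusted p = 0.533). Its batch A medians were 7.81 CPM after RYGB, 6.02 after sham surgery, 9.17 in BWM and 6.39 in Lean. BWM versus sham was 0.51 (standard error 0.195) with an unadjusted p of 0.0115 and an adjusted p of 1, and 0 of the 10 genes passed in BWM versus sham, where 7 of 16676 genes (0.042%) did. The highest BWM library, at 20.6 CPM, stood far above the other 7, which ran from 4.45 to 11.7, and without it (BWM replicate 6) the value fell to 0.25.

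Irs2 (gene ID 29376, chromosome 16, 83824515 to 83848569, plus strand), the main fasting-induced adaptor of the liver, was at 7.05 to 25.7 CPM (median 11.9) after RYGB and at 2.26 to 12.3 (median 9.15) after sham surgery. The upper RYGB libraries lay above all sham libraries and the lower ones among them. The log2 fold change was 0.59 (standard error 0.273, 95% interval 0.04 to 1.14, adjusted p = 0.370), and limma, with 0.57, gave an adjusted p of 0.0455. All values of Irs2 in the other groups lay between 1.19 and 23.3 CPM, and its log2 fold changes versus saline were 0.15 for liraglutide+PYY, 0.20 for PYY and 0.16 for liraglutide. For liraglutide+PYY the batches went opposite ways, with 1.01 in batch A alone (adjusted p = 0.677) and -0.51 in batch B alone (adjusted p = 0.556). Irs1 split likewise, with 0.54 and -0.53 (adjusted p = 0.713 and 0.362).

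Pik3r1, which encodes the p85 alpha regulatory subunit of class I PI3-kinase, had a negative log2 fold change after RYGB that passed in batch A alone. Pik3r1 (gene ID 25513, chromosome 2, 31742326 to 31826882, minus strand) was at 61.4 to 119 CPM (median 86.8) after RYGB and at 82.6 to 175 (median 123) after sham surgery in batch A. In batch B it was at 38.9, 39.9 and 42.0 CPM after RYGB and at 52.3, 35.2, 37.8, 57.5 and 47.1 after sham surgery. The groups overlapped in both batches. The log2 fold change was -0.39 in all libraries (standard error 0.146, adjusted p = 0.197), -0.54 in batch A alone (adjusted p = 0.0240) and -0.18 in batch B alone (adjusted p = 0.979). Limma gave -0.41 with an adjusted p of 0.0314. RYGB versus BWM was -0.36 (adjusted p = 0.479) and RYGB versus Lean -0.06 (adjusted p = 0.983). Ordered by the level fitted for batch A, PYY stood highest at 130.5 CPM and RYGB lowest at 84.6. PYY has no library in batch A, and its measured batch B libraries were at 53.6 to 94.6 CPM. No neighbours in that order differed at an adjusted p under 0.05.

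Akt2 and Foxo1 showed no difference between RYGB and sham that could be told from the spread of the libraries. Akt2 (gene ID 25233, chromosome 1, 84400939 to 84451223, plus strand), the main AKT kinase of insulin action in the liver, was the steadiest of the 10, between 58.6 and 88.2 CPM in all 69 libraries. Its log2 fold change after RYGB was -0.01, with a 95% interval of -0.14 to 0.12. In the other 7 comparisons of the groups drawn side by side in the plot of fold changes it lay between -0.08 and 0.11.

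Foxo1 (gene ID 84482, chromosome 2, 141451234 to 141527016, plus strand) differed by 0.13 on the log2 scale in RYGB versus sham (95% interval -0.46 to 0.73, adjusted p = 0.945), with 0.41 in batch A alone and -0.56 in batch B alone. In batch A it was at 4.29 to 10.2 CPM after RYGB (median 6.01), 2.57 to 6.26 after sham surgery (median 4.91), 4.19 to 11.2 in BWM (median 5.24) and 2.37 to 5.92 in Lean (median 4.01). RYGB versus Lean was 0.62 (standard error 0.325, adjusted p = 0.421) in all libraries and 0.66 (adjusted p = 0.0461) in batch A alone, and the 2 groups overlapped. The value for liraglutide+PYY versus saline was -0.57 (standard error 0.352, adjusted p = 0.594). It was -1.71 in batch B alone (adjusted p = 0.362). All 5 liraglutide+PYY libraries of batch B lay below all 5 saline libraries, as libraries did in 1 or the other direction for 2.03% of genes. Of these, liraglutide+PYY replicates 8, 9 and 11 are among the 6 batch B libraries that lay apart. In batch A alone the value was 0.24 (adjusted p = 0.896), so the pooled direction did not hold there. In batch B the counts were low, and 1 liraglutide+PYY library had 0 counts, which allows up to 0.159 CPM (3 counts, counting error only).

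**Figure D2:**
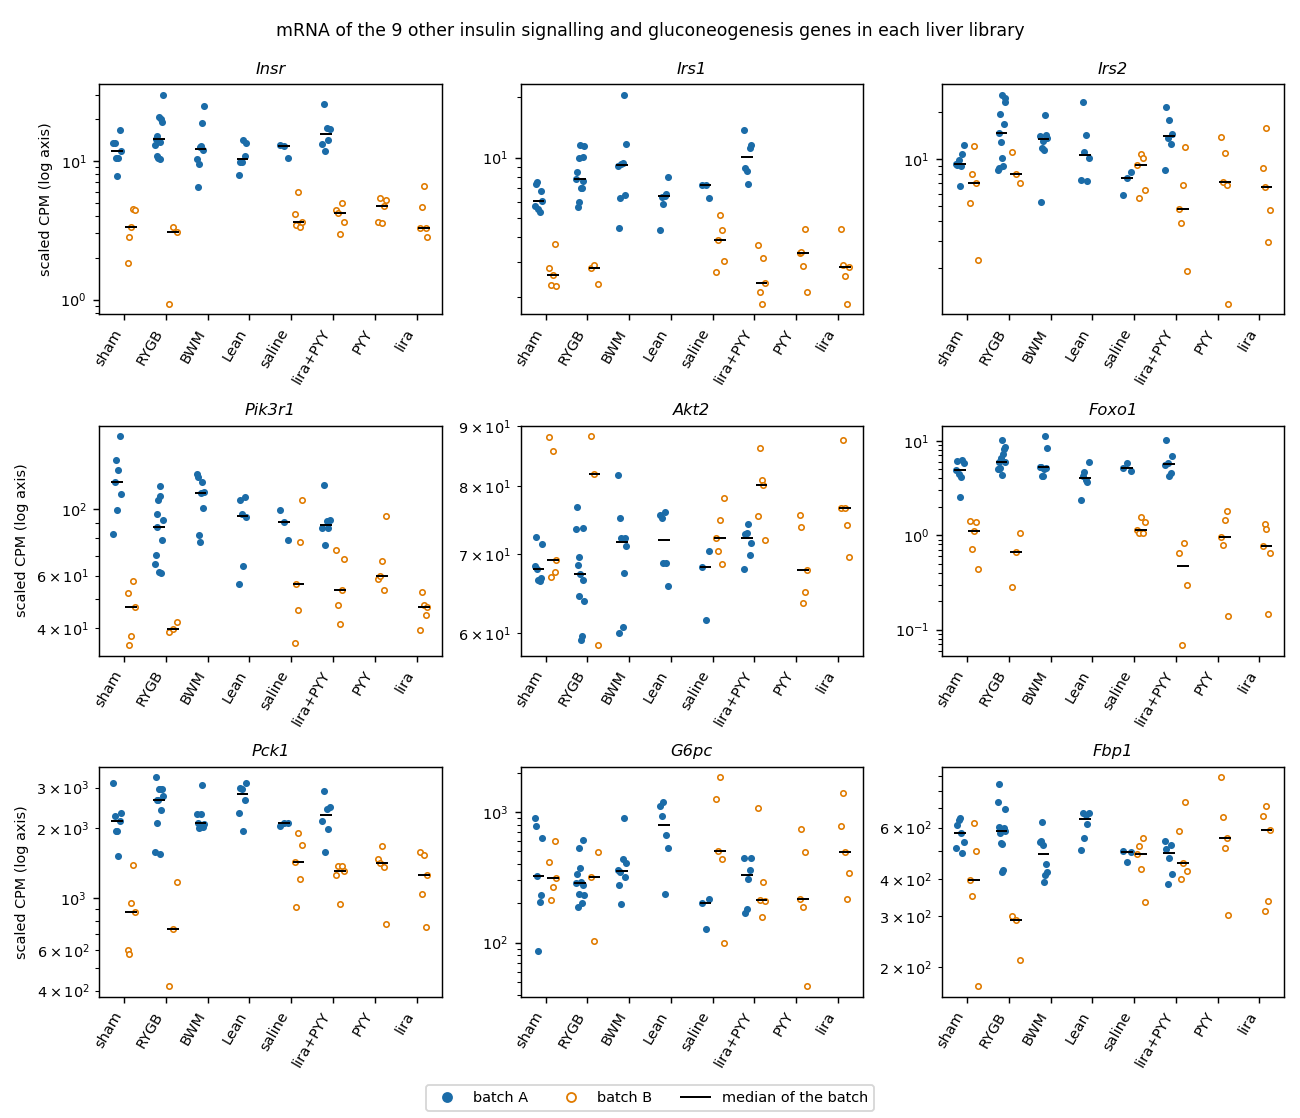
Scaled CPM (vertical axes, log scale) of the 9 genes other than Pik3c2g in each liver library by group (horizontal axes). Filled points are batch A, open points batch B, bars are medians of a batch within a group, and the 1 liraglutide+PYY library with 0 counts of Foxo1 is not drawn. All 28 batch B libraries lie below all 41 batch A libraries for Foxo1, whereas Akt2 stays between 58.6 and 88.2 CPM.

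None of the 3 gluconeogenic enzymes passed the test in RYGB versus sham, and G6pc in the Lean group gave the largest difference. Pck1 (gene ID 362282, chromosome 3, 171213936 to 171219885, plus strand) encodes the cytosolic phosphoenolpyruvate carboxykinase, the first committed step from oxaloacetate. It was at 1554 to 3319.6 CPM (median 2655) after RYGB and 1529 to 3139.8 (median 2144) after sham surgery in batch A. In batch B it was at 417, 738 and 1171 CPM after RYGB and at 573 to 1393 after sham surgery. The groups overlapped in both batches, and the log2 fold change was 0.19 (95% interval -0.15 to 0.53, adjusted p = 0.794).

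Fbp1 (gene ID 24362, chromosome 17, 396175 to 417480, minus strand), the liver fructose-1,6-bisphosphatase, gave -0.03 on the log2 scale in RYGB versus sham (95% interval -0.37 to 0.31, adjusted p = 0.980). Its 14 RYGB libraries ran from 211 to 847 CPM and its 12 sham libraries from 172 to 648. The value versus saline was 0.43 for PYY (adjusted p = 0.992), 0.26 for liraglutide (adjusted p = 1) and 0.01 for liraglutide+PYY (adjusted p = 0.981).

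G6pc (gene ID 25634, chromosome 10, 89286009 to 89296213, plus strand) encodes the catalytic subunit of glucose-6-phosphatase, which releases free glucose. Lean libraries were at 235 to 1196 CPM with a median of 795, RYGB libraries at 103 to 609 with a median of 289 and sham libraries at 86.9 to 908 with a median of 318. Of the 6 Lean libraries 4 lay above all 14 RYGB libraries, at 662, 928, 1105 and 1196 CPM. RYGB versus Lean was -1.34 (standard error 0.443, 95% interval -2.23 to -0.45, adjusted p = 0.0760), and in batch A alone -1.26 (adjusted p = 0.0163). Leaving out Lean replicate 4, the lowest Lean library, gave -1.53 (adjusted p = 0.0487), leaving out RYGB replicate 9 gave -1.46 (adjusted p = 0.0494), and the other 18 such fits did not call the gene. Lean versus sham was 1.01 (standard error 0.470) with an unadjusted p of 0.0352 and an adjusted p of 0.745. In Lean versus sham 0 of the 10 genes passed, beside 0.612% of all genes. RYGB versus sham was -0.32, with a 95% interval of -1.11 to 0.47.

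G6pc had the widest 95% intervals of the 10 genes in the drug comparisons. Saline libraries of batch B were at 1267, 502, 1841, 441 and 99.1 CPM, and those of batch A at 201, 128 and 216. PYY libraries were at 215, 741, 189, 493 and 46.3 CPM and liraglutide libraries at 779, 1406, 495, 217 and 342. The groups overlapped throughout. The log2 fold changes versus saline were -0.86 for PYY (95% interval -2.03 to 0.32), 0.08 for liraglutide (95% interval -1.05 to 1.22) and -0.63 for liraglutide+PYY (95% interval -1.6 to 0.34). Leaving out 1 library moved them from -1.35 to -0.32, from -0.39 to 0.62 and from -1.05 to -0.14, and the value nearest 0 for PYY and for liraglutide+PYY and the highest for liraglutide came without saline replicate 7. Liraglutide+PYY versus saline was 0.80 in batch A alone and -1.08 in batch B alone, so its pooled direction did not hold within batch A.

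Across the drug treatments none of the 10 genes passed. In liraglutide+PYY versus saline and in PYY versus saline 0 of the 10 passed beside 0% of 16508 genes in edgeR, with 7.62% and 3.99% at an unadjusted p under 0.05, and in liraglutide versus saline 0 of the 10 passed beside 0.00606%, with 5.12% at an unadjusted p under 0.05. At an unadjusted p under 0.05 the 10 genes gave 1 in these 3 comparisons, Pik3c2g under liraglutide (p = 0.0361, adjusted p = 0.966). DESeq2 and limma also called 0 of the 10 in each of the 3. In sham versus saline 0 of the 10 passed, beside 0% of all genes.

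**Figure D3:**
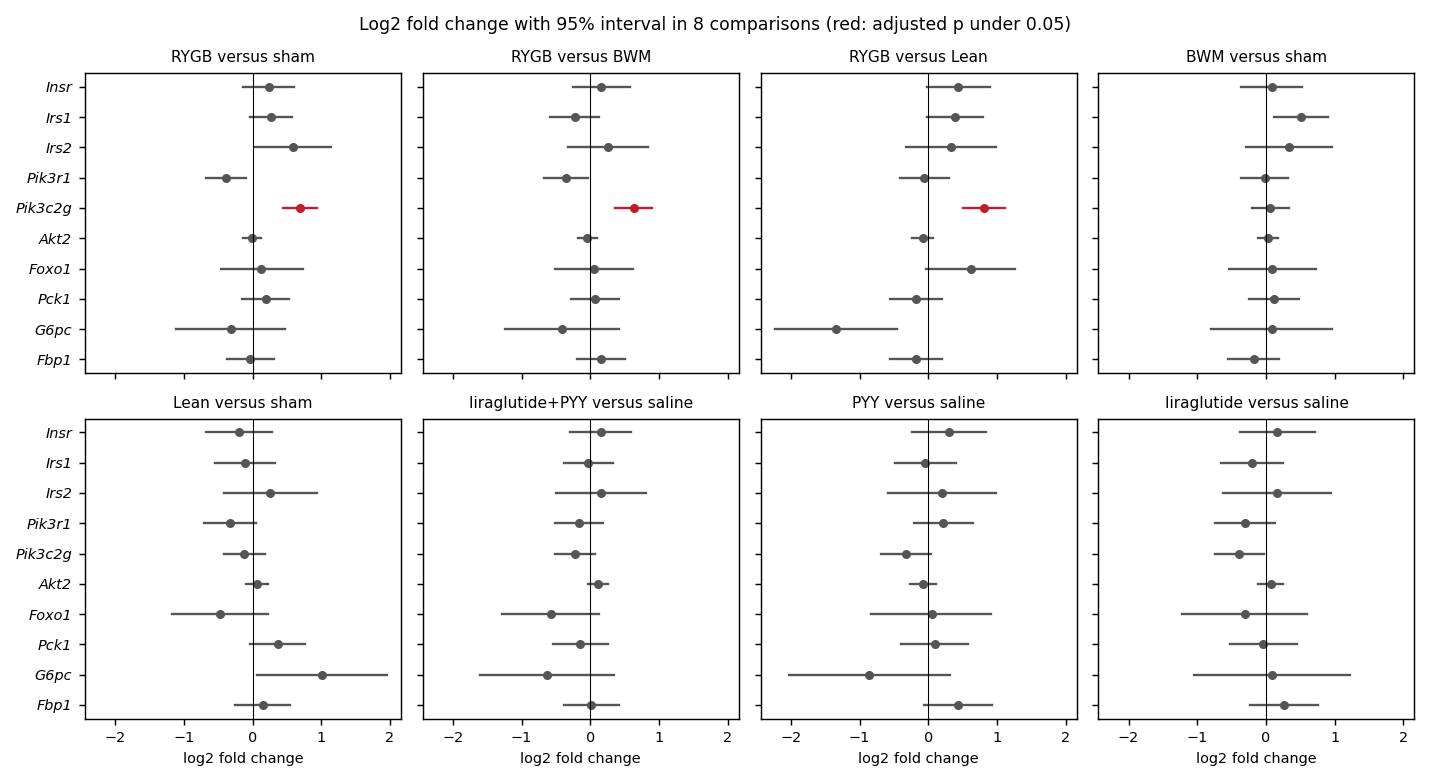
Log2 fold change (horizontal axes) of the 10 genes (vertical axes) in 8 comparisons from edgeR, with points for the estimate and lines for the 95% interval. Red marks an adjusted p under 0.05, which only Pik3c2g reached, in RYGB versus sham (0.69), versus BWM (0.63) and versus Lean (0.81).

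For 7 of the 10 genes the difference between batches was larger in size than every difference between groups in the plot of fold changes. With group as a term, 8 of the 10 differed between batch B and batch A, 7 lower and 1 higher in batch B, beside 60.6% of 16676 genes (33.7% higher and 26.9% lower). The median log2 difference of the 10 was -0.82 against 0.09 for all genes. The log2 difference was -2.86 for Foxo1 (standard error 0.244), -2.01 for Insr (standard error 0.161), -1.45 for Irs1 (standard error 0.141) and -1.12 for Pck1 (standard error 0.133).

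Pik3r1, at -0.97, Irs2, at -0.67, and Fbp1, at -0.37, were lower in batch B too, and Akt2 was higher by 0.15. Pik3c2g and G6pc, at -0.02 and 0.32, did not pass. For Foxo1 the batches did not overlap at all, with 41 batch A libraries between 2.37 and 11.2 CPM and 28 batch B libraries between 0 and 1.79, as was so for 1.48% of genes. The batches did not overlap within RYGB, sham, liraglutide+PYY or saline for Insr, Irs1, Foxo1 and Pck1, as was so for 25.6%, 14.7%, 22.3% and 26.4% of genes in these 4 groups. Among the periportal markers 5 of 7, Pck1 included, were lower in batch B, with a median of -0.69. Of the 7 pericentral markers 4 were lower and 1 higher (median -0.61), and of 9 stellate cell and fibroblast markers 5 were higher and 1 lower (median 0.79). Their part in these differences was not tested. BWM and Lean have no batch B libraries, and PYY and liraglutide no batch A libraries, so their levels can be set beside each other only through the batch term.

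**Figure D4:**
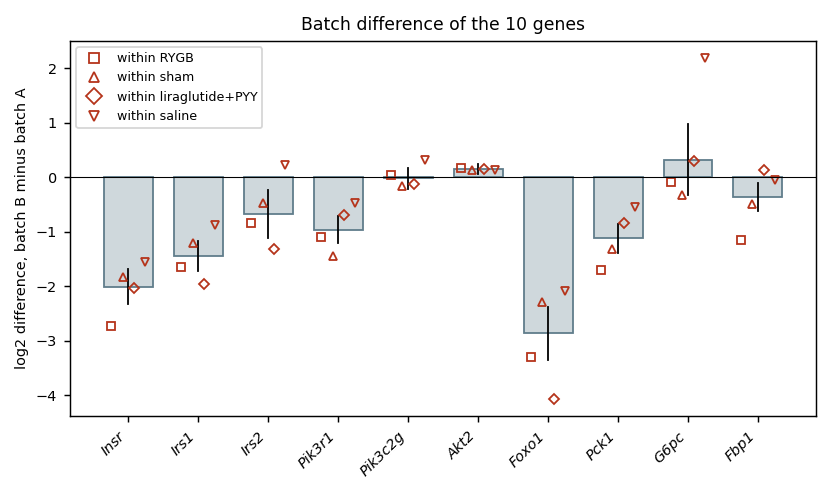
Log2 difference between batch B and batch A (vertical axis) for the 10 genes (horizontal axis). Bars are the estimates of the fit with group as a term, lines their 95% intervals, and symbols the log2 ratio of mean CPM within each of the 4 groups that have both batches. The bars run from -2.86 for Foxo1 to 0.32 for G6pc, and the symbols of Pik3c2g lie on both sides of 0, with saline above and sham below.

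Few other genes of the pathway passed in RYGB versus sham, where 2.47% of all genes did, a share that leaves lists of this size with few or no calls. Of 31 other signalling genes tested 0 passed, 19 were positive and the median log2 fold change was 0.09. A value as large as that of Pik3c2g occurred among them without passing, 0.69 for Irs3 (standard error 0.346, adjusted p = 0.441). Of 16 brakes on the pathway, such as phosphatases and inhibitory adaptors, 0 passed, with a median of 0.08, and the lowest p values were those of Inpp5k (0.23, adjusted p = 0.255), a phosphoinositide phosphatase, and Trib3 (0.72, adjusted p = 0.291), a pseudokinase that binds AKT. Of 12 FOXO1 targets that insulin represses 0 passed, with a median of -0.05. Igfbp1, the target most often used as a readout of insulin, stood at 0.34 (standard error 0.556, adjusted p = 0.925).

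Ppargc1a, which encodes PGC-1 alpha, a coactivator that drives gluconeogenic genes in fasting, was higher after RYGB. Ppargc1a (gene ID 83516, chromosome 14, 63095291 to 63190688, plus strand) was at 3.08 to 19.4 CPM (median 7.05) after RYGB and at 1.45 to 5.40 (median 3.32) after sham surgery. The groups overlapped, and the log2 fold change was 1.44 (standard error 0.318, adjusted p = 0.00423). It was 1.33 in batch B alone (adjusted p = 0.735), and leaving out each library in turn gave 1.29 to 1.57 with 26 of 26 fits calling it. Ppargc1a was the 1 call among 16 regulators of gluconeogenic genes, whose median was 0.04. RYGB versus BWM and versus Lean gave 1.19 and 1.06 for it (adjusted p = 0.0518 and 0.1). Versus saline it stood at 1.22 for liraglutide, 0.92 for liraglutide+PYY and 0.37 for PYY (adjusted p = 0.862, 0.589 and 0.992). The RYGB effect exceeded that of liraglutide+PYY by 0.52 (adjusted p = 0.654), and none of these passed.

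Gpi, glucose-6-phosphate isomerase, which serves both gluconeogenesis and glycolysis, was the 1 call among 20 other gluconeogenesis genes, with a list median of 0.17. Gpi (gene ID 292804, chromosome 1, 90063411 to 90091287, minus strand) was at 94.6 to 177 CPM (median 116) after RYGB and at 36.3 to 114 (median 84.1) in sham animals. Its log2 fold change was 0.64 (adjusted p = 0.015, standard error 0.16), and in batch B alone 0.94 (adjusted p = 0.522). Without RYGB replicate 13 and sham replicate 12 together it was 0.53 with an adjusted p of 0.0620. Of the 4 enzymes or regulators of the opposing glycolytic steps 0 passed.

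**Figure D5:**
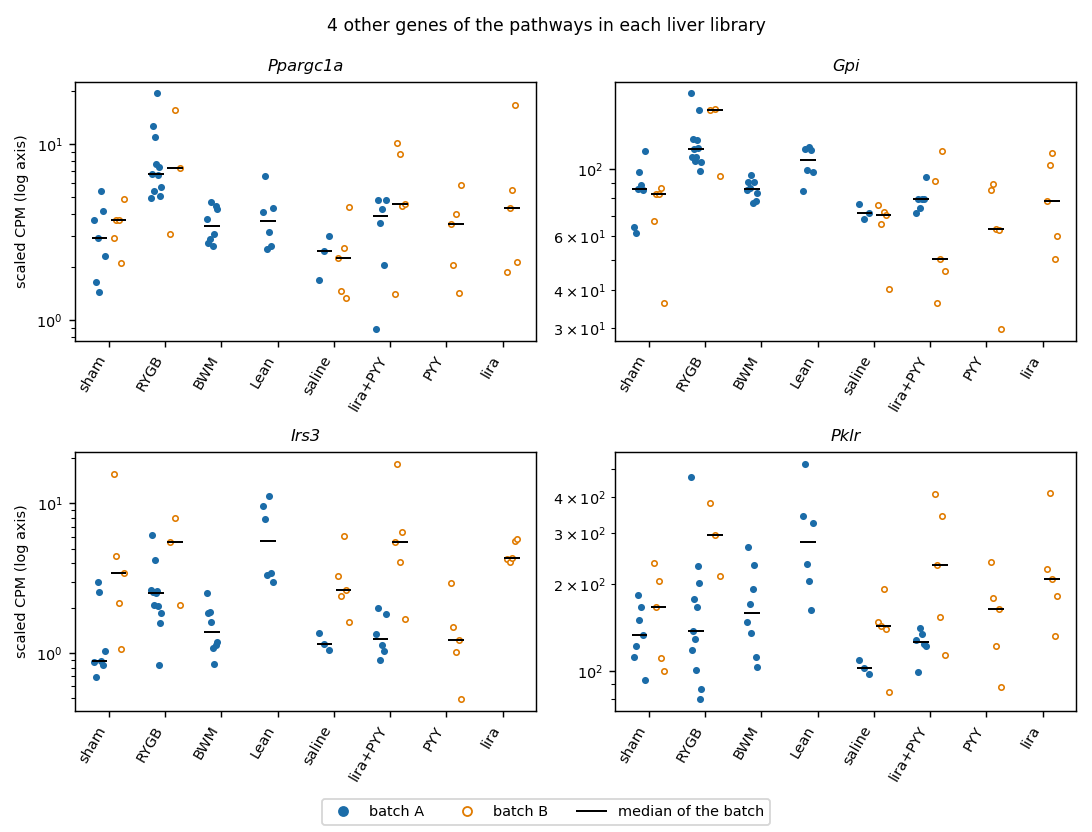
Scaled CPM (vertical axes, log scale) of Ppargc1a, Gpi, Irs3 and Pklr in each liver library by group (horizontal axes), with filled points for batch A, open points for batch B and bars for the median of a batch within a group. Ppargc1a has a median of 7.05 CPM after RYGB and 3.32 after sham surgery, and Irs3 one of 5.64 in Lean.

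Calls of the wider pathway against the Lean group stand beside 3.88% of all genes in RYGB versus Lean and 0.612% in Lean versus sham. Irs3, a short adaptor of rodents, was at 3.0 to 11.2 CPM in Lean (median 5.64), which lies in batch A only. Over both batches it was at 0.831 to 8.05 after RYGB (median 2.55) and at 0.692 to 15.7 after sham surgery (median 1.6). Irs3 was higher in batch B, by 1.76 on the log2 scale. In batch A it was at 0.831 to 6.2 CPM after RYGB (median 2.53) and at 0.692 to 2.99 after sham surgery (median 0.884). It was higher in Lean versus sham by 2.10 (standard error 0.406, adjusted p = 0.00186) and lower in RYGB versus Lean, at -1.41 (standard error 0.372, adjusted p = 0.0147). Neither call held without the batch term, with adjusted p of 0.712 and 0.483. The RYGB versus Lean call was also lost without Lean replicate 1 or Lean replicate 4, with adjusted p of 0.0744 and 0.0919.

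Pklr, the liver pyruvate kinase, was at 162 to 519.7 CPM in Lean and 93.2 to 235 in sham animals, and the log2 difference was 1.26 (adjusted p = 0.00617, standard error 0.271). The call was lost in 4 of 13 other settings, with adjusted p up to 0.246, batch A alone among them (1.11, adjusted p = 0.0713), and without Lean replicate 2 (1.03, adjusted p = 0.0944). In RYGB versus Lean, Fbp2, the muscle form of fructose-1,6-bisphosphatase, was at 0.543 to 1.29 CPM against 0.095 to 0.336. All 14 RYGB libraries lay above all 6 Lean libraries, as libraries did in 1 or the other direction for 0.378% of genes. Lean libraries held 18037046 to 25062189 counts in total, so their Fbp2 levels rest on few reads. The log2 fold change of Fbp2 in RYGB versus Lean was 1.93 (standard error 0.477, adjusted p = 0.00785). Sds, serine dehydratase, which feeds serine into gluconeogenesis and is also a periportal marker, was lower, at -2.11 (adjusted p = 0.0144, and 0.0558 without Lean replicate 6). The regulatory subunit Pik3r3 was lower too, at -0.70 (adjusted p = 0.0270, and 0.0863 and 0.0632 without Lean replicates 4 and 6). The lower values of Ldha, lactate dehydrogenase (-0.72, adjusted p = 0.0479), and of the FOXO1 target Apoc3 (-0.62, adjusted p = 0.0303) kept their call in 7 and 15 of the 20 fits without 1 library and in 7 and 8 of 13 other settings.

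Described over the 69 libraries with batch means removed, the 10 genes followed one another loosely. The highest Spearman correlation of log2 CPM between them was 0.52, for Insr and Irs1 (0.70 in batch A and 0.27 in batch B), and the lowest -0.32, for Pik3r1 and Akt2. Pck1 and G6pc stood at 0.39. All points share library, depth and group, so these values are a description only.

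The genes most like Pik3c2g on the same measure were Hipk2 (0.67), a protein kinase, Cyp4a1 (0.65), a fatty acid omega-hydroxylase, and Glrx (0.59, with 0.71 in batch A and 0.29 in batch B), a glutaredoxin. The RYGB libraries entered this choice, so the log2 fold changes of these genes in RYGB versus sham, 0.67 for Hipk2, 1.21 for Cyp4a1 and 0.74 for Glrx, are given as a description. G6pc was most like Sik1 (0.79), a kinase induced by cAMP, Fbp1 most like Echs1 (0.83), a mitochondrial enzyme of fatty acid oxidation, and Irs2 most like the receptor Erbb3 (0.73).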

How the data were processed

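RNA from rat liver was sequenced after poly(A) selection as single-end, stranded reads. According to the study's methods the authors trimmed the reads with cutadapt 2.5, aligned them with STAR 2.7.2b to Rnor_6.0 and counted them per RefSeq gene with featureCounts 1.6.4, splitting reads that matched several places. The deposited values are therefore estimated counts, of which 15.9% were not whole, and they were rounded.

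Counts were analysed in R 4.3.3 with edgeR 4.0.16 (filterByExpr, minimum count 10, TMM, robust quasi-likelihood test) with terms for group and batch. RYGB, sham and drug comparisons came from 1 fit of 55 libraries, and those with BWM or Lean, the test over all groups and the batch term from 1 fit of 69. CPM levels of genes are on the scale of the 69, and sums of marker lists are scaled to the library's total alone. P-values were adjusted over all genes tested (Benjamini and Hochberg), with a threshold of 0.05. Libraries were taken as separate animals, as the study describes. The 10 genes, the pathway and marker lists and the tests were chosen with earlier results of these data known. Other pathway genes were named when called in a comparison of groups, or as those of lowest p in RYGB versus sham. Genes alike were the 3 with the highest Spearman correlation, of which a selection is named. Igfbp1 and the marker genes were named after their values were seen.

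The fits were checked on simulated counts with known changes. Alternatives were DESeq2 1.42.0 with and without batch, limma 3.58.1, other size factors, filters and rounding, other sets of libraries and leaving out each library. The Insr, Pik3r1 and Akt2 counts held split reads in 34.8%, 63.8% and 46.4% of libraries, at most 0.0776% of a gene's total.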

Additional observations from a re-analysis of the deposited data

Results flagged for a closer look

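One BWM library, replicate 6, stood apart from the other 7 of its group for 3 of the genes. It was the highest for Irs1, at 20.6 CPM against 4.45 to 11.7 in the others, for Pck1, at 3086 CPM, and for G6pc, at 908 CPM, by Dixon's test at its 95% critical value. Of 50 gene and group pairs tested 3 were found, all in this library, and chance gives about 5% of pairs. The share found is thus close to that of chance. The larger groups RYGB, sham and liraglutide+PYY were not tested, and saline was tested with its batches together. The 3 genes come from 1 library and are not independent of one another.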

How the results depend on the processing

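The call of Pik3c2g in RYGB versus sham was lost in batch B alone and held in 14 of 15 other settings and in all 26 fits without 1 library. In RYGB versus BWM and RYGB versus Lean it held in all 13 other settings and in the 22 and 20 fits without 1 library. The number of the 10 genes called in RYGB versus sham, 1, became 3 in limma (with Irs2 and Pik3r1), 2 in batch A alone (with Pik3r1) and 0 in batch B alone. In RYGB versus Lean it became 2 in limma, 2 in a fit of only the groups compared, 2 without the 6 batch B libraries that lay apart (each with G6pc) and 3 in batch A alone (with G6pc and Foxo1), and it ran from 1 to 2 when 1 library was left out. For the difference between the RYGB and liraglutide+PYY effects it was 0, and 1, Pik3c2g, in DESeq2 with batch (1) and without batch (1), in limma (1), with DESeq2 size factors (1), in a fit of only the groups compared (1) and in a fit of all 69 libraries (1), and from 0 to 1 when 1 library was left out, with 10 of 45 such fits calling it. In the test over all 8 groups it was 5 without the batch term. The cause of these changes was not tested. No call changed direction. The 6 batch B libraries that lay apart were sham replicate 12, PYY replicate 5, liraglutide replicate 4 and liraglutide+PYY replicates 8, 9 and 11. Their TMM factors were 0.753, 0.677, 0.624, 0.685, 0.846 and 0.773.

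The replicate numbers were tried as a replicate block, though same-numbered libraries shared only a number (correlation -0.46 to 0.16 in RYGB versus sham, 3 of 12 best with their own). The paired fit left the number of the 10 genes called unchanged in every comparison, with Pik3c2g at 0.76 (adjusted p = 0.00231), but Gpi and Ppargc1a did not pass (adjusted p = 0.0659 and 0.0853). Single-batch fits were not run for groups absent from a batch, nor the 55-library fit for BWM and Lean. The RYGB libraries of batch B number 3, and each single-drug group holds 5 animals.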
